A study of Mus musculus with 33 samples.

Results

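The genome of the E11.5 mouse forebrain and that of the E11.5 heart were compared as 2 maps of chromatin domains. CUT&RUN, which releases the DNA under an antibody with a tethered nuclease, had been run against histone H3 dimethylated at lysine 9 (H3K9me2) and against Lamin B1. The forebrain material was the right lobe and the heart material the whole organ, both from wild-type C57BL/6 embryos at E11.5 (embryonic day), with no other genotype or treatment in either group. Each antibody had 3 libraries per tissue, each from a separate pool of litters, and each tissue had 6 IgG control libraries. From these the authors deposited 3 domain lists per tissue, named LAD, KOD and open, and the 6 lists were laid out as 10 kb bins of chromosomes 1 to 19 of mm10. Of 240077 bins, 202031 were listed in both tissues, and these 2020.3 Mb (84.2% of 2401 Mb) are what the comparison rests on.

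Lamina-associated domains (LADs) are long stretches of chromatin held at the nuclear envelope, where the lamins form a mesh under the inner membrane. They are usually poor in genes and rich in H3K9me2, and genes of other lineages are often found in them. KOD is a label of the depositors that no source used here expands. Open is likewise their word, and it names a list here and not a measure of accessibility or expression.

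Each tissue has 1 list per state that pools its replicates and carries no score. The read depth of a domain is thus unknown, no value below has a replicate error, and no test between tissues was possible. The spread is given over the 19 chromosomes instead, which are pieces of 1 pooled map and not replicates. Both tissues are mixtures of cell types, so a state in some of the cells and a state in all of them cannot be told apart, and expression, by which the tissue labels could be checked, was not measured.

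The 2 tissues had the same state over 85.1% of the bases listed in both, and a different one over 300.1 Mb (14.9%). Exchange between KOD and open made up 168 Mb of the difference, exchange between LAD and KOD 74 Mb, and exchange between LAD and open 58.6 Mb. Each exchange was uneven in direction. Bases LAD in forebrain and open in heart came to 35.3 Mb against 23.3 Mb for the reverse, and they were the larger of the pair on 17 of 19 chromosomes. Bases open in forebrain and KOD in heart came to 104.8 Mb against 62.7 Mb for the reverse and were the larger on 15 of 19. Bases KOD in forebrain and LAD in heart came to 45.1 Mb against 28.9 Mb and were the larger on 13 of 19. The larger direction thus ended, in heart, in open for the first exchange, in KOD for the second and in LAD for the last.

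**Figure D1:**
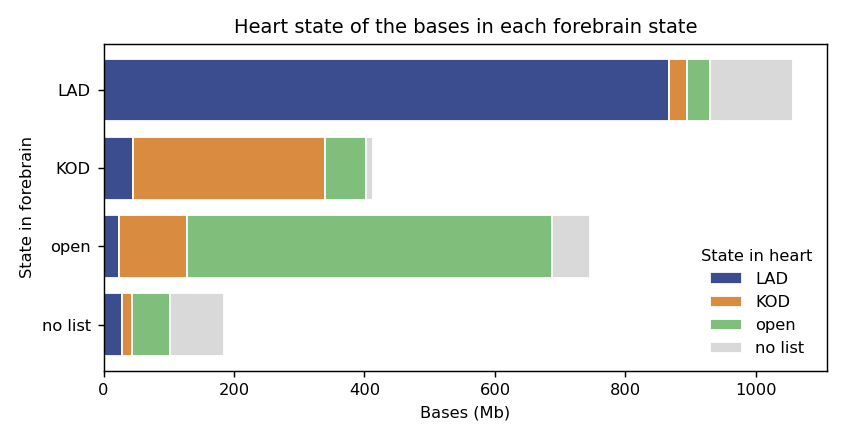
Heart state of the bases in each forebrain state, in Mb, on chromosomes 1 to 19. Each bar is a forebrain state and its colours are the heart states of the same bases; the largest block is the 866 Mb that were LAD in both tissues, and the grey block beside it the 126.5 Mb that were LAD in forebrain and in no heart list.

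Chromosomes differed several-fold in how much they changed. The share of bases in another state was lowest on chromosome 3 (8.16%), had a median of 15.2% and was highest on chromosome 19 (24.8%). Chromosome 7 held the most open to LAD and the most KOD to LAD bases of any chromosome. It held 5.43 Mb that were open in forebrain and LAD in heart against 0.43 Mb of the reverse. It also held 8.05 Mb that were KOD in forebrain and LAD in heart against 0.29 Mb of the reverse. Its exchanges with LAD were thus mostly LAD on the heart side, while 7.69 Mb were KOD to open and 2.72 Mb open to KOD. Chromosome 6 also had more open to LAD than LAD to open bases (1.11 against 0.32 Mb). Chromosome 5 was likewise one-sided between KOD and LAD, with 5.43 Mb KOD to LAD against 0.03 Mb of the reverse. The difference of LAD to KOD minus KOD to LAD bases, -16.2 Mb over all chromosomes, was -8.46 Mb without chromosome 7. Chromosome 4 held the most bases that were KOD in forebrain and open in heart, 9.51 Mb against a median of 2.28 Mb. On chromosome 19 the open to KOD class alone was 12.2% of bases, against a median of 4.62%. Whether copy number, mappability or depth moves with these chromosomes was not tested.

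**Figure D2:**
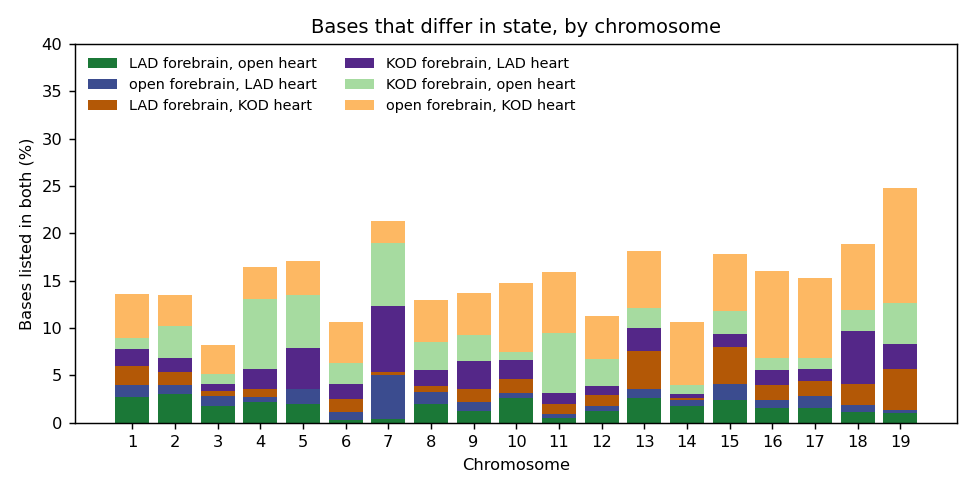
Percent of the bases listed in both tissues that differed in state, by chromosome, stacked by the forebrain and the heart state. Chromosome 19 is the highest bar (24.8%) and chromosome 3 the lowest (8.16%), and chromosome 7 has the widest bands of bases that were LAD in heart only.

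The differing bases fell into 6666 contiguous regions of 1 state pair. Most were short. Their median was 20 kb and 2187 were a single bin of 10 kb, but the 1999 regions of at least 50 kb held 70.1% of the bases. Regions that were KOD in forebrain and LAD in heart were the longest as a group, with a median of 30 kb and 39.0% of their bases in the 46 regions of at least 200 kb. In comparison, 10.3% of the KOD to open bases and 11.9% of the open to LAD bases lay in regions that long. Each region was then set beside the nearest stretches listed in both tissues on its flanks. For 43.8% of the KOD to open bases and 39.9% of the open to KOD bases, 1 flank had the forebrain state in both tissues and the other the heart state in both, as when a border sits at another place. The same held for 14.7% of the LAD to open bases, 14.0% of the open to LAD bases, 7.48% of the LAD to KOD bases and 3.92% of the KOD to LAD bases. With 20 kb trimmed from both ends of every domain, 130.6 Mb differed, and with domains under 100 kb left out 187 Mb did. The larger direction of each exchange was the same in both.

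**Figure D3:**
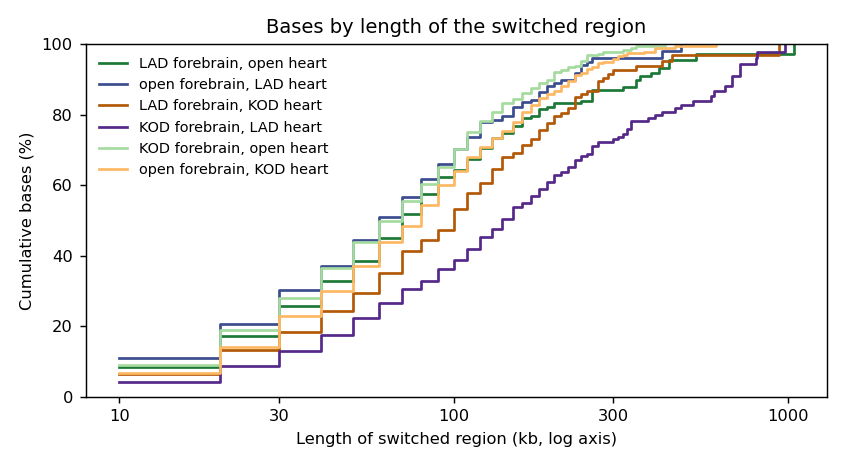
Cumulative percent of bases against the length of the switched region in kb (log axis), 1 line for each pair of states. The line of regions KOD in forebrain and LAD in heart lies below the others over most of the axis, since 39.0% of its bases were in regions of at least 200 kb.

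The longest regions that were LAD in forebrain and open in heart held genes of the heart beside gene families with near-identical copies. The longest, chr5:10880001-11920000 (1040 kb), held Gm5861, Speer1 and Gm6460, members or neighbours of a spermatogenesis family. Reads of such copies can be placed at the wrong one, so this region is uncertain, as are those of the major urinary protein genes (Mup) on chromosome 4 and the zinc finger cluster near the end of chromosome 2. Next among regions with at most 3 genes wholly inside was chr13:11530001-11970000 (440 kb), most of it in Ryr2, the calcium release channel of the sarcoplasmic reticulum. It was followed by chr17:81360001-81770000 (410 kb), which held all of Slc8a1, the sodium-calcium exchanger of the heart. Hmcn1, a matrix protein gene, lay across a region of 350 kb on chromosome 1, and Rasgrp3 and Fam98a lay within 320 kb of chromosome 17. Rasgrp3 encodes a Ras activator known from endothelial cells and B cells.

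In the opposite direction the longest region lay in a gene of neurons. It was open in forebrain and LAD in heart and spanned chr15:30270001-30750000 (480 kb), within Ctnnd2, which encodes delta-catenin, a neuronal protein of dendrites and synapses. A second region of 230 kb lay in the same gene, so that Ctnnd2 was open over 95.7% of its body in forebrain and LAD over 94.2% in heart. Dpp6, an auxiliary subunit of neuronal potassium channels, held a region of 260 kb on chromosome 5 and was open over 79.9% of its body in forebrain and LAD over 93.7% in heart. In mouse embryonic stem (mES) cells both genes were mainly KOD, over 61.8% and 72.5% of their bodies. Tenm4, a teneurin of neurons, and Tmem178b, Apba2 and Cdh4 were overlapped by further regions of 180 to 200 kb. The remaining long ones included pregnancy-specific glycoprotein genes (Psg) and Cyp2b13 and Cyp2b9 on chromosome 7, again families with similar copies.

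Some of the longest regions held no protein-coding gene at all. Of the bases that were LAD in forebrain and KOD in heart, 65.9% lay in regions that overlapped none, and of the bases KOD in forebrain and LAD in heart 59.2% did. For KOD to open bases the value was 14.4% and for open to KOD bases 20.7%. The longest LAD to KOD region was 940 kb on chromosome 1 (185710001 to 186650000) with Lyplal1, and the longest KOD to LAD region 980 kb on chromosome 5 (125620001 to 126600000), with Gm4868 and part of Tmem132b. Another KOD to LAD region of 720 kb on chromosome 18 lay across most of Dcc, the netrin receptor that guides commissural axons. The longest open to KOD region, 610 kb on chromosome 15, held Ywhaz and Zfp706, and one of 400 kb on chromosome 18 held Gata6, a transcription factor of heart and endoderm. The longest KOD to open regions were 430 kb in Dennd1a, next to Lhx2 on chromosome 2, 350 kb with most of Prdm16, and 340 kb with Emx2 and Vax1 on chromosome 19.

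Counted by gene, with the state taken as that of the most bases of the gene body, 17901 of 20661 protein-coding genes were listed in both tissues. Of these, 2720 differed (15.2%). LAD in forebrain and open in heart were 231 genes (1.29%), and open in forebrain and LAD in heart were 175 (0.978%). LAD to KOD took in 64 genes (0.358%) and KOD to LAD 107 (0.598%). KOD to open took in 1162 genes (6.49%) and open to KOD 981 (5.48%). The excess of LAD to open genes over the reverse, 56 genes, was 21 without chromosome 2 and 116 without chromosome 7, and it was 20 with domains under 100 kb left out. Without chromosome 7 the open to LAD count was 106. Of the genes LAD in forebrain and listed in heart, 8.31% were open in heart, and of those LAD in heart and listed in forebrain, 6.32% were open in forebrain.

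Genes and bases gave opposite orders for KOD and open. By bases the open to KOD class was the larger, 104.8 against 62.7 Mb, while by genes the KOD to open class was, by 181 genes. The KOD to open bases held 18.7 gene midpoints per Mb, close to the 17.99 of bases open in both tissues, and the open to KOD bases held 9.19, close to the 8.83 of bases KOD in both. The excess of 181 genes was 28 without chromosome 7, 49 without chromosome 4, 76 without chromosome 11 and 104 without chromosome 5. It was 96 with 20 kb trimmed from domain ends and 278 when only genes with at least 90% of their body in the state were counted. LAD to open and open to LAD bases held 6.46 and 7.13 midpoints per Mb, above the 2.86 of bases LAD in both.

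The state of the same bases in the mES cells, the remaining source of the series, a C57BL/6 line in LIF and inhibitors, differed between the 2 directions of the KOD and open exchange. Of the bases KOD in forebrain and open in heart, 75.4% of those listed in mES cells were open there, like the heart. The open to KOD bases were 54.6% KOD and 44.6% open in mES cells, so neither tissue's state was rare there. All shares of this paragraph are of bases listed in mES cells. That leaves out 8.03 of the 35.3 Mb LAD in forebrain and open in heart and 2.37 of the 23.3 Mb of the reverse. Bases LAD in forebrain and open in heart were, where listed, 66.1% LAD in mES cells. Those open in forebrain and LAD in heart were 20.8% LAD, 49.9% KOD and 29.3% open. The KOD to LAD bases were 52.2% LAD and 43.1% KOD in mES cells. Bases LAD in both tissues were 96.8% LAD in mES cells.

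Genes of the heart were among those LAD in forebrain and open in heart. Of the 5 heart lists together, 217 genes in all, 186 were listed in both tissues and 50 of these differed (26.9%, against 15.2% of all genes). LAD in forebrain and open in heart were 18 of the 186 (9.68%, against 1.29% of all genes), in 17 switched regions, and the reverse held for 2 (1.08%, against 0.978%). Of the 31 heart-list genes that were LAD in forebrain and listed in heart, 58.1% were open in heart, compared with 8.31% of all such genes. That share was between 53.6% and 64.3% with any chromosome left out. It was 61.1% with 20 kb trimmed from domain ends, on 11 open genes instead of 18, and 53.85% on 7 open genes when at least 90% of the body had to be in the state. Another 13 heart-list genes (5.99%) were LAD in forebrain and in no heart list, compared with 18 forebrain-list genes (6.98%) and 3.07% of all genes. No test stands behind these counts, and the lists were chosen with results of these data known.

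The forebrain lists did not mirror this. Of 258 genes, 218 were listed in both tissues and 38 differed (17.4%). Open in forebrain and LAD in heart were 5 (2.29%, against 0.978% of all genes) and LAD in forebrain and open in heart were 3 (1.38%, against 1.29%). Those 3 were Pcdh7, Isl1 and Erbb4, and the last 2 are also in the heart lists and among the 18 heart-list genes. Without chromosome 15 the open to LAD count was 3, and with 20 kb trimmed or domains under 100 kb left out it was 2. With at least 90% of the body required the open to LAD count was 0 and the LAD to open count 1, so their order turned. Of the 65 forebrain-list genes LAD in heart and listed in forebrain, 7.69% were open in forebrain, close to the 6.32% of all genes. Of those 65 genes 57 were LAD in both tissues, and so were 2485 of the 2767 such genes overall. The synaptic adhesion, receptor and vesicle list alone held 44 of the 57, and 2 of the 5 open to LAD genes. The pooled share of 7.69% is thus mostly that of 1 list and does not describe the other forebrain lists.

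**Figure D4:**
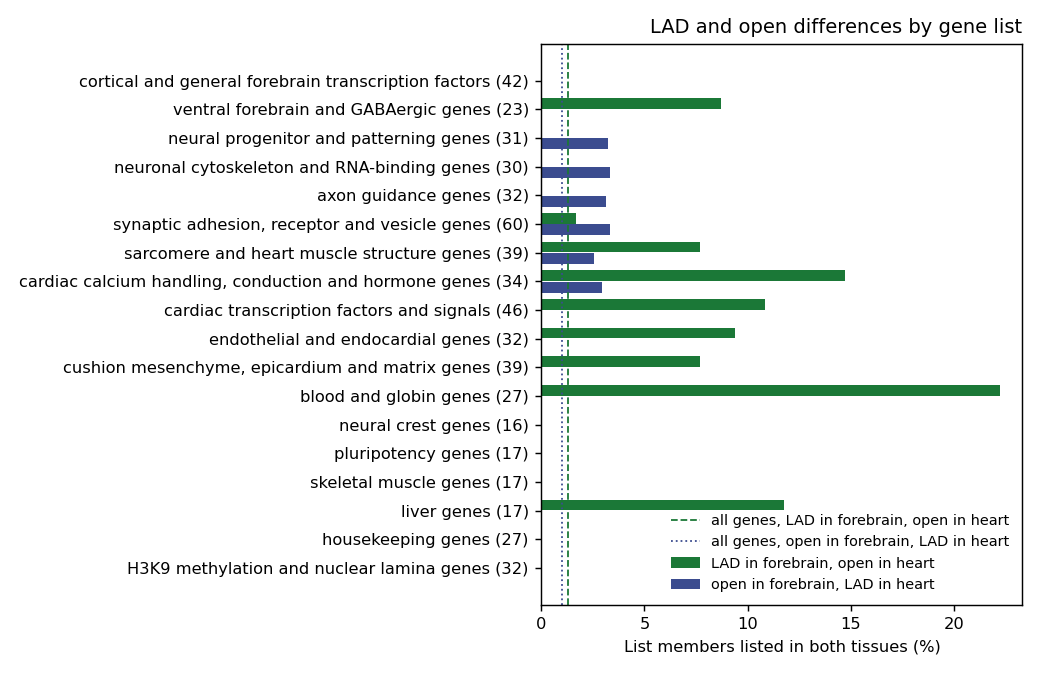
Percent of the members listed in both tissues (number in brackets) that were LAD in forebrain and open in heart (green) or the reverse (blue), for each symbol list; the lines mark all protein-coding genes (1.29% and 0.978%). All 5 heart lists, and the blood, liver, ventral forebrain and synaptic lists, have green bars past the line, and the 5 blue genes of the forebrain lists are spread over 4 lists. The green bar of the ventral forebrain list is Isl1 and Erbb4, which are also in the list of cardiac transcription factors and signals.

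For 17 of the 26 named list members with a LAD and open exchange and a known start, that start lay in the same pair of states as the gene body. Among the rest, the start of Ptprz1 was LAD in both tissues, and those of Corin, Erbb4, Pcdh7 and Sema5a were open in both. The starts of Ryr2, Nebl and Dpp6 were in no forebrain list and that of Tek in no heart list. In heart the start of Nebl was LAD, although its body was counted as open there. The promoters of the first 6 of the 17, in list order, are shown as the sequence that changed domain. They are the 300 bases from 250 before to 50 after the start in RefSeq on GRCm38.p6, written along the strand of the gene. Map2 was open in forebrain and LAD in heart and the other 5 the reverse. Capitals mark every match to 4 motifs, searched on both strands. TATAAA is the core promoter element near many start sites. AGATAA is a form of the motif of the erythroid and cardiac zinc finger factors. CATCTG is a form of the E-box of helix-loop-helix factors. The CArG box is the motif of serum response factor.
Actc1, chr2:114052826-114053125, minus strand: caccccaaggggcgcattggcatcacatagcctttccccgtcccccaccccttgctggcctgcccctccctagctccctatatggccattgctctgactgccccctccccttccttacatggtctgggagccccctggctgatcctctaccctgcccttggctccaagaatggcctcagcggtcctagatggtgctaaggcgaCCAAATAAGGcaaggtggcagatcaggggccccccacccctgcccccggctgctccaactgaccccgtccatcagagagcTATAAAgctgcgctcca
Myoz2, chr3:123034938-123035237, minus strand: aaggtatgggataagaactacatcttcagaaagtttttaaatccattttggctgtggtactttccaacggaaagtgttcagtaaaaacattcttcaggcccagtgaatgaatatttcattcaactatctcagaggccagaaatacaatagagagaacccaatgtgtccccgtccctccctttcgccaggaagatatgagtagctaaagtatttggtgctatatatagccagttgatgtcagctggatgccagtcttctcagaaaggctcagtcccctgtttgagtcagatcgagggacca
Slc8a1, chr17:81738338-81738637, minus strand: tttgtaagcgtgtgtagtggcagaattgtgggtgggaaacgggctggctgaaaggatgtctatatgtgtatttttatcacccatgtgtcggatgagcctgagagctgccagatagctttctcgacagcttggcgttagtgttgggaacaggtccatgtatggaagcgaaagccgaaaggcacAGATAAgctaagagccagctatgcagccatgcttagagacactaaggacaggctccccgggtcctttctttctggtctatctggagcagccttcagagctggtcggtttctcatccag
Cacnb2, chr2:14604056-14604355, plus strand: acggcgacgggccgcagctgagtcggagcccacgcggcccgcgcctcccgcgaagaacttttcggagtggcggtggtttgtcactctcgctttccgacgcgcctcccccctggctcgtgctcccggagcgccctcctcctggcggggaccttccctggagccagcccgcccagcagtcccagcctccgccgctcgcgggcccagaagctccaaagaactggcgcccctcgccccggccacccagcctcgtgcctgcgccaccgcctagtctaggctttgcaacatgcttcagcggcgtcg
Isl1, chr13:116309639-116309938, minus strand: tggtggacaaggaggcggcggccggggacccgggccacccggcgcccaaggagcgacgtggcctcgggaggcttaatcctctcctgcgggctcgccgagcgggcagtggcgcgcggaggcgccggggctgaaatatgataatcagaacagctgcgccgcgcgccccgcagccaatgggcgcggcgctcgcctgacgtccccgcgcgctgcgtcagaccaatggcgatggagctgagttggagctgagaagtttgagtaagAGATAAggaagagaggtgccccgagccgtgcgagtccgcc
Map2, chr1:66175079-66175378, plus strand: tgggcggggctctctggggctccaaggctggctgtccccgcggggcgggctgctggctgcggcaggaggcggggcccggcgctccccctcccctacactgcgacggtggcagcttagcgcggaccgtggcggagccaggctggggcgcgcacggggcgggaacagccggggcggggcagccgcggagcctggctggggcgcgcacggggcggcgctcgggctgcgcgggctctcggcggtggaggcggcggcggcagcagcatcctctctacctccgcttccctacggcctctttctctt
Actc1 held a CArG box from base 204, counted from 1 at the left, before the annotated start, and TATAAA from base 284, after it. The CArG box reads as a match on both strands and is 1 site. Slc8a1 held AGATAA from base 183 and Isl1 from base 261, and the other 3 held none of the 4 motifs. Of the 16456 promoters in the table, 1.45% held a CArG box. The core promoter element was in 13.5%, the zinc finger motif in 9.85% and the E-box form in 14.9%. CpG dinucleotides ranged from 4 in Myoz2 and 7 in Actc1 to 37 in Isl1 and Map2, so promoters both poor and rich in CpG changed domain. The table held 79.6% of the protein-coding genes, too few for a comparison of composition between classes, which is void.

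Calcium handling, conduction and hormone genes of the heart had the highest share of differing members among the 18 symbol lists. It was 15 of 34 (44.1%, against 15.2% of all genes). Slc8a1 (chromosome 17, 81373105 to 81738387) was LAD over 100% of its body in forebrain and in mES cells and open over 100% in heart. Ryr2 (chromosome 13, 11553099 to 12106945) was LAD over 84.3% in forebrain and open over 98.2% in heart. Cacnb2, a subunit of the L-type calcium channel (chromosome 2, 14603861 to 14988811), was LAD over 92.5% and open over 79.2%. Camk2d, the calcium-dependent kinase of heart muscle, was LAD over 76.1% in forebrain and open over 89.5% in heart, and Corin, which cleaves the natriuretic peptides, was LAD over 78.2% and open over 70.7%. LAD in forebrain and open in heart were thus 5 of the 34, against 1.29% of all genes. All 5 of these kept the pair of states with 20 kb trimmed from domain ends. Chrm2, the muscarinic receptor of the pacemaker, was wholly LAD in forebrain and wholly KOD in heart. Sln, sarcolipin, an inhibitor of the calcium pump in atrial muscle, went against the list, wholly open in forebrain and wholly LAD in heart. It is shorter than 1 bin and was in no list of either tissue when trimmed. Atp2a2, the calcium pump itself, was KOD over 86.7% in forebrain and open over 74.9% in heart, while Cacna1c and Cacna1d, pore subunits of the L-type channel, were open in forebrain and KOD in heart. The list did not share 1 direction, with 3 genes KOD to open and 5 open to KOD, against 6.49% and 5.48% of all genes.

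**Figure D5:**
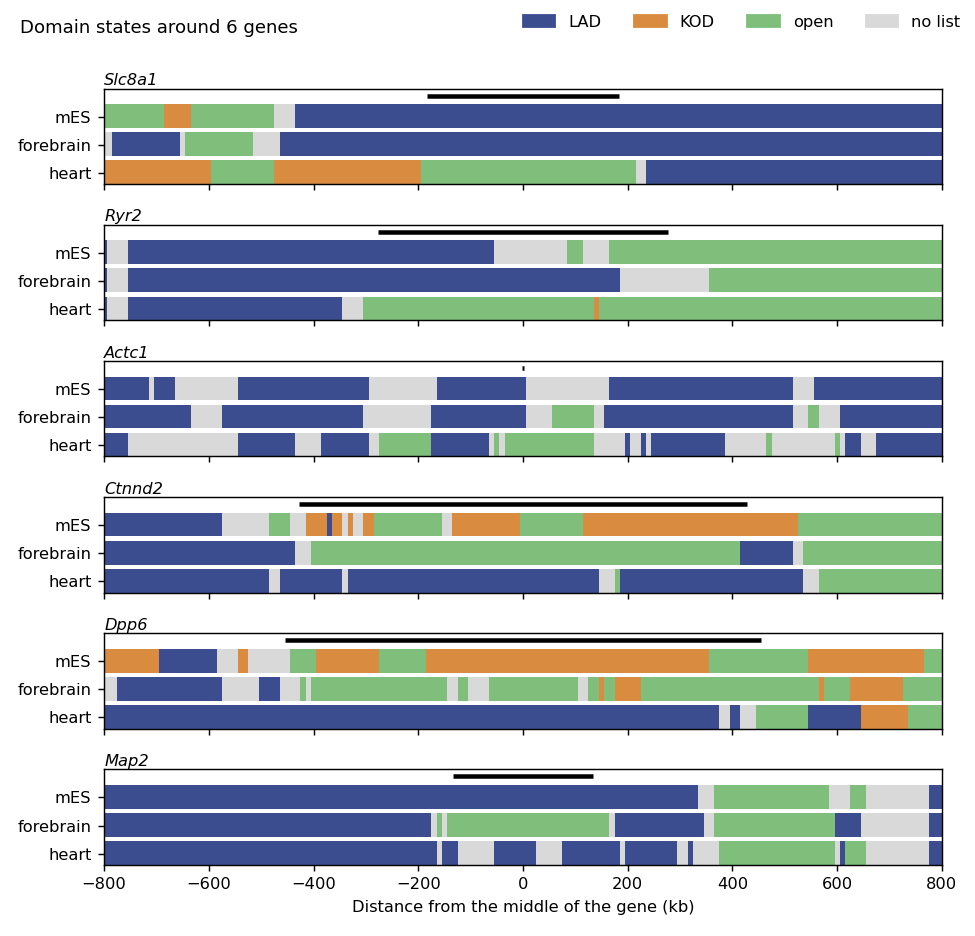
Domain states in bins of 10 kb around 6 genes in mES cells, forebrain and heart, by distance from the middle of the gene in kb; the black bar is the gene body and grey marks bins in no list. Slc8a1, Ryr2 and Actc1 lie in LAD in forebrain and in open in heart, while Ctnnd2, Dpp6 and Map2 are open in forebrain and mostly LAD in heart.

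Sarcomere genes differed in 9 of 39 cases (23.1%, against 15.2% of all genes), and 3 of them were LAD in forebrain and open in heart. The cardiac actin gene Actc1 (chromosome 2, 114047282 to 114052875) was LAD over 100% of its body in forebrain and open over 100% in heart, at the end of a forebrain LAD, and when trimmed it was in no forebrain list. Myoz2, a Z-disc protein (chromosome 3, 123006206 to 123035003), was wholly LAD in forebrain and wholly open both in heart and in mES cells. Nebl, nebulette, was LAD over 58.0% and open over 42.7% and was in no list of either tissue when trimmed. Myom2, an M-band protein, was the exception, open over 100% in forebrain and LAD over 57.3% in heart. Myh6 and Tnnt2, the atrial myosin heavy chain and cardiac troponin T, were KOD over 69.0% and 100% in forebrain and open over 100% and 85.8% in heart. Myl4 and Mypn went from open in forebrain to KOD in heart. Of the other sarcomere genes 23 were open in both tissues.

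Among the cardiac transcription factors and signals 11 of 46 differed (23.9%, against 15.2% of all genes), 5 of them LAD in forebrain and open in heart. Isl1, a factor of the second heart field and also of ventral forebrain neurons (chromosome 13, 116298270 to 116309688), was wholly LAD in forebrain and wholly open in heart. Tbx18, of the epicardium and sinus horn, was LAD over 74.7% and open over 100%. Bmp5 was LAD over 100% and open over 83.7%, Zfpm2, the GATA cofactor also called Fog2, LAD over 81.2% and open over 51.1%, and Erbb4, the neuregulin receptor, LAD over 67.6% and open over 61.2%. When trimmed, Isl1 and Bmp5 kept their states and Tbx18, Zfpm2 and Erbb4 did not. With domains under 100 kb left out, Isl1 and Erbb4 did not keep them. Tbx3 and Irx5, of the conduction system and ventricle, were KOD in forebrain and open in heart. Gata6 was open over 100% in forebrain and KOD over 100% in heart.

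Some genes of endothelium, mesenchyme, blood and liver were LAD in forebrain and open in heart. They were 3 of 32, 3 of 39, 6 of 27 (in 2 regions) and 2 of 17 (in 1 region), against 1.29% of all genes. Others differed in other ways. Erg, Sox7, Runx2, Col5a1, Ahsg, Kng1 and Apoh were open in forebrain and KOD in heart, and Cyp2e1 was KOD in forebrain and LAD in heart. Tek, the angiopoietin receptor Tie2, was LAD over 100% in forebrain and open over 99.3% in heart, and its ligand Angpt1 LAD over 100% and open over 79.3%. S1pr1, a sphingosine phosphate receptor, was wholly LAD and wholly open. With 20 kb trimmed or with domains under 100 kb left out, S1pr1 and Angpt1 did not keep the pair. The adjacent fibrillar collagen genes Col3a1 and Col5a2 (chromosome 1, 45311538 to 45503282) were wholly LAD in forebrain and open over 100% and 81.9% in heart. At the beta-globin locus, Hbb-y, Hbb-bh1, Hbb-bh2, Hbb-bs and Hbb-bt (chromosome 7, 103812524 to 103853207) were wholly LAD in forebrain and wholly open in heart, as 1 switched region. These are red-cell genes and similar copies of each other, and Mrc1, the mannose receptor of macrophages, also was wholly LAD in forebrain and wholly open in heart. Alb and Afp, albumin and alpha-fetoprotein of the liver (chromosome 5, 90460870 to 90508907), were so too, in 1 region. With domains under 100 kb left out, none of the 5 globin genes, Alb and Afp kept the pair, and with 20 kb trimmed Hbb-bt, Hbb-bs and Alb did not. Skeletal muscle, neural crest, pluripotency and housekeeping lists had no gene that exchanged LAD and open. They hold only 17, 16, 17 and 27 genes listed in both tissues, too few for a share of 1.29% to show. Whether cells of other types in the dissected hearts take part in these states was not tested, since no expression was measured.

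Neuronal genes that were open in forebrain and LAD in heart were few and long. Map2, the microtubule protein of dendrites (chromosome 1, 66175202 to 66442583), was open over 100% of its body in forebrain and LAD over 55.1% in heart and 100% in mES cells. Ptprz1, a receptor phosphatase of radial glia (chromosome 6, 22875315 to 23052916), was open over 73.2% and LAD over 94.4%. Sema5a, an axon guidance protein, was open over 67.6% and LAD over 43.5%, and Rims2, of the presynaptic active zone, open over 53.8% and LAD over 54.4%. Of the 5 genes, Dpp6 and Ptprz1 kept the pair when trimmed. Dcc, Dab1, the reelin adaptor, and Opcml, an adhesion molecule, were KOD over 100%, 90.2% and 86.8% in forebrain and LAD over 83.9%, 48.9% and 42.2% in heart. Dab1 and Opcml were also KOD over 35.1% and 38.4% of their bodies in heart, and neither kept the pair when trimmed. Pcdh7, a protocadherin of the synaptic list, went the other way, LAD over 75.1% in forebrain and open over 96.8% in heart. Outside the symbol lists, 11 of 37 clustered protocadherin genes were open in forebrain and LAD in heart, against 0.978% of all genes. All 11 were of the Pcdha cluster on chromosome 18, in 1 switched region. They overlap each other and share their last exons, so they are not 11 separate observations. Of the same 37 genes, 26 were open in both tissues. Another 19 of the family were open in forebrain and in no heart list.

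Several transcription factors of the forebrain were KOD in forebrain and open in heart. In the cortical and general list 9 of 42 genes differed (21.4%, against 15.2% of all genes), and 7 of them were KOD in forebrain and open in heart, namely Emx2, Lhx2, Otx2, Neurod2, Sox5, Lmx1b and Barhl2. Emx2, Lhx2, Otx2 and Neurod2 were wholly KOD in forebrain, wholly open in heart and wholly open in mES cells. Emx2 and Otx2 kept this pair when trimmed. Olig2 and Tubb3, the neuronal beta-tubulin, had the same states in all 3 sources, as did Sox9 of the progenitor and patterning list. In that list 5 of 31 genes were KOD in forebrain and open in heart, against 6.49% of all genes. Among them Wnt7b, Pax3 and Rspo1 were KOD over only 53.0%, 50.8% and 59.9% in forebrain. Rspo1 and Fgfr2 were mainly KOD in mES cells. Cux2 and Nr2e1 were the reverse, open over 58.2% and 100% in forebrain and KOD over 88.5% and 100% in heart. Nefm, Ina, Dpysl5 and Rtn1 of the neuronal cytoskeleton list were also open in forebrain and KOD in heart. Over the 6 forebrain lists KOD to open took in 16 genes (7.34%) and open to KOD 11 (5.05%), and over the 5 heart lists 15 (8.06%) and 14 (7.53%), against 6.49% and 5.48% of all genes.

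Other genes gave the background to these counts. Of 39 Hox genes, the patterning factors of the trunk, 11 were KOD in forebrain and open in heart (28.2%, against 6.49% of all genes), in 4 regions, and none the reverse. In the list of H3K9 methyltransferases, their partners and lamina proteins, 5 of 32 were KOD in forebrain and open in heart, against 6.49% of all genes. They were Setdb1, Cbx1, Cbx5, Prdm16 and Zfp644, while Lbr, the lamin B receptor, was open in forebrain and KOD in heart. With 20 kb trimmed from domain ends Cbx1 and Prdm16 kept the pair, and Setdb1, Cbx5, Zfp644 and Lbr did not. In the housekeeping list 5 of 27 genes (18.5%) differed, which was near the 15.2% of all genes. Yet 4 of the 27, Actb among them, were KOD in forebrain and open in heart, also against 6.49% of all genes. An excess in that class was thus not particular to the forebrain or H3K9 lists. Olfactory receptor genes differed in 44 of 1002 cases (4.39%) and 862 were LAD in both tissues. Of the miRNA genes, Mir143 and Mir145a, of smooth muscle, were open in forebrain and KOD in heart, and Mir124a-3, of neurons, was KOD in forebrain and open in heart.

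A further group of bases was LAD in forebrain and in no heart list. It came to 126.5 Mb in 3264 stretches with a median of 20 kb, the longest of 740 kb, against 28.4 Mb that were LAD in heart and in no forebrain list. For 47.0% of those 126.5 Mb the next listed bins on both sides were LAD in heart. Of all 126.5 Mb, 68.5% were LAD in mES cells and 23.1% were in no mES list. The share of forebrain LAD bases without a heart state had a median of 11.2% over chromosomes, from 5.70% on chromosome 18 to 16.1% on chromosome 2. Among protein-coding genes 634 (3.07%) were LAD in forebrain and in no heart list. Axon guidance genes were so in 9 of 44 cases, namely Unc5c, Robo1, Sema3a, Sema3c, Sema3d, Sema3e, Plxna2, Epha3 and Chl1. Among the heart lists Kcnj2, Cacna2d1 and Pde3a of the calcium and conduction genes were too, and none of the sarcomere genes. With the absence from every list taken as a separate state, 598 Mb differed between the tissues instead of 300.1 Mb. A bin can be in no list for want of mappable reads or of signal over a threshold, and which holds here was not tested.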

How the data were processed

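The authors deposited lists of domains as start and end positions in whole bins of 10 kb of mm10, with no score, per the file headers and contents, so the unit is other than a count, a signal or a ratio. Per the submitters' processing notes, reads went through Bowtie2 2.5.0, cutadapt 4.2, Picard, deepTools and Trim Galore. Signal tracks were not analysed here. The calling of domains, with the use of IgG and replicates, was a step not given in the sources used here. Whether depth or thresholds differed between the tissues is unknown.

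Lists were painted in bins with Python 3.11.15, numpy 2.4.6 and pandas 2.3.3, and drawn with matplotlib 3.10.9. Painting and counting were checked on a simulated map. Genes were the 20661 protein-coding RefSeq genes of GRCm38.p6 on chromosomes 1 to 19. The 37 gene lists (18 of symbols, 17 families and 2 of miRNA genes) matched all symbols but Pou3f4, Syn1, Phf8, Mir497a and Mir486a. The members and lists were chosen with earlier results of these data known. Named genes are list members that differ (LAD changes first, at most 8 per list), genes in the 5 longest LAD and open regions per direction with at most 3 genes wholly inside, the 10 longest wholly switched genes per direction and differing miRNA genes. Other genes were named after their values were seen, namely those on other long regions, list members of the KOD and open or no-list groups, and families. Promoters of the first 6 genes that qualified were printed. Alternatives changed domain ends, short domains, gaps and the rule for the state of a gene, or left out each chromosome.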

Additional observations from a re-analysis of the deposited data

How the results depend on the processing

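Over all bases and all genes, no exchange turned its direction under any alternative run, but most amounts depend on domain ends, since many regions are short. By construction, 20 kb trimmed from both ends of every domain leaves the 1999 switched regions of at least 50 kb, each shorter by the trimmed bins.

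Under that trimming 130.56 Mb changed, with LAD to open 14.61, open to LAD 8.47, LAD to KOD 14.16, KOD to LAD 26.83, KOD to open 22.76 and open to KOD 43.73 Mb. The net LAD to open bases were 6.14 Mb and the net KOD to open bases -20.97 Mb. By gene 1002 changed, in the same order 107, 59, 21, 39, 436 and 340, with net LAD to KOD -18 and net KOD to open 96 genes. Of all forebrain-LAD genes 4.89% were then open in heart. Heart-list genes numbered 11 LAD to open and 0 open to LAD, and forebrain-list genes 2 open to LAD.

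With domains under 100 kb left out there were 2430 regions and 186.59 Mb, with LAD to open 20.84, open to LAD 12.34, LAD to KOD 16.99, KOD to open 37.70 and open to KOD 67.73 Mb. By gene 1596 changed, 126 LAD to open, 106 open to LAD, 30 LAD to KOD, 52 KOD to LAD, 719 KOD to open and 563 open to KOD, with net values of 20 for LAD to open and -22 for LAD to KOD. Of all forebrain-LAD genes 5.14% were open in heart, and of the forebrain-list ones 1.92%. Heart-list open to LAD was 1 gene, forebrain-list LAD to open 1 and the reverse 2. With only regions of at least 50 kb counted there were 1999, with 14.63 Mb open to LAD and 39.76 Mb KOD to open. With bins in no list taken as a state 597.51 Mb differed.

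With at least 90% of the body required, 1607 genes changed, 146 LAD to open, 94 open to LAD, 28 LAD to KOD, 61 KOD to LAD and 500 open to KOD, and the net KOD to open value was 278. Heart-list counts were 7 LAD to open and 1 the reverse, and forebrain-list counts 1 and 0. At the start of transcription, known for fewer genes, LAD to KOD was 42 genes, heart-list counts were 11 and 0, and forebrain-list open to LAD was 2. No count or amount differed by over 1.5 times at the gene midpoint, with gaps filled or with genes of 1 region counted once.

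With each chromosome left out in turn, net LAD to KOD ran from -18.38 to -8.46 Mb and from -53 to -22 genes, net LAD to open from 21 to 116 genes and net KOD to open from 28 to 252 genes. Open to LAD ran from 106 to 173 genes, heart-list open to LAD from 1 to 2 and forebrain-list open to LAD from 3 to 5.

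The analysis has 1 pooled list per state, so replicates, depth and thresholds could not be varied. No paired analysis was possible because the lists pool the replicates. Of the 34 named list members that exchange LAD and open, 19 kept their pair when trimmed, 18 with domains under 100 kb left out (Isl1, the 5 globin genes, Alb and Afp among the 16 that did not), 28 at the midpoint and 17 of 26 with a known start there. Of the 69 that exchange KOD and open, 24 kept their pair when trimmed, 66 at the midpoint and 34 of 48 with a known start there.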

Other observations

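Potassium channel genes differed between forebrain and heart in 20 of 71 cases (28.2%, against 15.2% of all genes), 6 of them KOD to open and 8 open to KOD, which are 6.49% and 5.48% over all genes. Kcnj5, a channel of atrial muscle, was open in forebrain and KOD in heart. Kcnh1 and Kcnk10 were open in forebrain and LAD in heart and Kcnq5 the reverse. Collagen genes differed in 12 of 37 cases (32.4%, against the same 15.2%). Besides Col3a1 and Col5a2, Col24a1 was LAD in forebrain and open in heart, and Col22a1 the reverse. Of 17 Sox genes, 6 differed (35.3%, against the same 15.2%). Sox5, Sox6, Sox9, Sox14 and Sox15 were KOD in forebrain and open in heart, against 6.49% of all genes. Of 49 keratin genes, 42 were KOD in both tissues, and 6 neighbours on chromosome 15, from Krt7 to Krt84, were open in forebrain and KOD in heart, in 2 regions. Those 6 (12.2%) were the only keratin genes that differed, against 5.48% of all genes open to KOD and 15.2% differing in any way.

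The longest genes with the whole body LAD in forebrain and open in heart were Slc8a1 (365 kb), Mrc1 (103 kb), Mup-ps12, Rasgrp3 (93.2 kb) and Scin, which encodes the actin-severing protein scinderin (74.5 kb). In the reverse direction they were shorter, led by Tmem182 (51.3 kb), Cyp2b9 (37.3 kb), Cyp2b13 (34.8 kb) and Marco, a scavenger receptor of macrophages (30.5 kb). No neuronal list gene was among those 10. Families with similar copies, such as Mup and Cyp2b, are uncertain because reads can be placed at the wrong copy.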
